A study of Arabidopsis thaliana with 3 samples.

Results

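The 8 genes described here are the 6 alpha-tubulin genes of Arabidopsis thaliana, TUA1 to TUA6, and its 2 gamma-tubulin genes, TUBG1 and TUBG2, taken by locus from the 32678 loci of the deposited count tables. All 8 loci were present. RNA came from 3 pools of dissected inflorescence meristems of the wild-type accession Col-0, the only group of the series, which carried no mutation, transgene or treatment. Plants had grown for 4 weeks with 8 h and then for 2 weeks with 16 h of light a day, and a pool held 10 inflorescences stripped of flower buds down to the primordium stage P5. Nothing in the labels tells whether each pool had its own culture or dissection, so p-values measure the spread between these pools only, which may be technical.

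Microtubules are hollow filaments built from dimers of alpha- and beta-tubulin. Gamma-tubulin does not form the filament wall, but sits with partner proteins in ring-shaped complexes from which new microtubules grow. In a plant meristem, microtubules under the plasma membrane guide the deposition of cellulose and so the direction of growth, and during division they form the preprophase band, the spindle and the phragmoplast that lays down the new cell wall. In the meristem pools every alpha- and gamma-tubulin gene was expressed, but at levels per length that spanned more than an order of magnitude. TUA2, TUA4 and TUA6 were the highest, TUA5 and TUA3 came next, and TUA1, known mainly as the alpha-tubulin of stamens and pollen, stood with the gamma-tubulins far below them.

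The 6 alpha-tubulin genes each encode a predicted protein of 450 residues, but only 4 different ones. TUA2 and TUA4 encode the same protein, with 46 differences among their 1353 coding bases. TUA3 and TUA5 encode another, with 29 base differences. TUA6 differs from TUA2 and TUA4 by 2 residues, and TUA1 is the most distant, with 51 residues different from TUA2 and 37 from TUA3. TUBG1 and TUBG2, of 474 residues each, differ by 9 residues and by 75 of 1425 coding bases. The ends of the coding sequences are shown because in alpha-tubulins they encode the carboxy-terminal tail. That stretch varies most between tubulins and stands out from the microtubule surface. The ends of TUBG1 and TUBG2 are shown only to compare these 2 genes with each other. Each line gives the last 60 coding bases, stop codon included, from the TAIR10.1 genome, with capitals where an alpha-tubulin gene differs from TUA2, or TUBG2 from TUBG1.
TUA1: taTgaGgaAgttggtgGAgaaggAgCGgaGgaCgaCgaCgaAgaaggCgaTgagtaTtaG
TUA2: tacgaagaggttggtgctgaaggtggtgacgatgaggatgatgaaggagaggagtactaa
TUA3: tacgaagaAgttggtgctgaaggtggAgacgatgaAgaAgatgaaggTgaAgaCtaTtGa
TUA4: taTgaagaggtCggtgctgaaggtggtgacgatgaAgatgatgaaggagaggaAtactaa
TUA5: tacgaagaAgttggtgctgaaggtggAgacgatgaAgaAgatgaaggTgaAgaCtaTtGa
TUA6: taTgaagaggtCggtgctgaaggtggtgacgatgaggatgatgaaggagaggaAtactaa
TUBG1: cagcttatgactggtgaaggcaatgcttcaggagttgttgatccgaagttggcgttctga
TUBG2: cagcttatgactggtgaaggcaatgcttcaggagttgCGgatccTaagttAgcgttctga

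The TUA3 and TUA5 lines are the same letter for letter, TUA6 has 3 capitals and TUA4 has 4, and TUA1 has 17. Such likeness limits how well short reads can be assigned. In the longest run of coding bases that 2 alpha-tubulin genes share, at chr5:6683321-6683610 on the minus strand of TAIR10.1, TUA3 and TUA5 are identical over 290 bases, printed here from TUA3.
TUA3 and TUA5: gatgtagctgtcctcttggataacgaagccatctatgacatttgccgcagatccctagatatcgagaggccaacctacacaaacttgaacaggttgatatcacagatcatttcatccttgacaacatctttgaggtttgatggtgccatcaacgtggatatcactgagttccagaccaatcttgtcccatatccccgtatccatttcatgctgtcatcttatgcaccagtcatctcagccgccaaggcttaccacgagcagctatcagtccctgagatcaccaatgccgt

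A read of 100 bases from inside that run matches both genes. Of all 100-base windows of the exons of a gene, the share found at 1 place among the exons of the 17 tubulin genes was 84.8% for TUA3 and 83.1% for TUA5, 94.5% for TUA4, 96.5% for TUA2 and 97.5% for TUA6. For TUA1, TUBG1 and TUBG2 it was 100%. The split between TUA3 and TUA5, and to a lesser degree among TUA2, TUA4 and TUA6, is therefore uncertain. So is the level of TUA3 and TUA5 together against the other alpha-tubulin genes. The rule for reads that match several places is not given in the sources used here.

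Nuclear genes held 29078107, 28933042 and 27236559 counts in replicates 1, 2 and 3, and CPM below is a count scaled by this library size to the usual common total. Of 6 meristem and floral markers, 5 reached 1 CPM in every library, among them AP1 and LFY, regulators of the floral meristem, and STM. STM, which keeps meristem cells undifferentiated, stood at 98.1, 126 and 116 CPM. The stem cell gene CLV3 was at 0.688, 0.899 and 1.10 CPM. Of 6 root markers none reached 1 CPM, with WOX5 and WER the highest, and PLT1, RHD6, CASP1 and COBL9 listed at 0 in all libraries. Tapetum markers were uneven, with summed levels of 136, 23.3 and 25.4 CPM in replicates 1, 2 and 3, nearly all of it from LAP6 in replicates 2 and 3. All values are averages over the cells of a pool, so that fewer cells with a transcript and less transcript per cell cannot be told apart.

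All 8 tubulin genes passed 1 CPM in each library, a threshold that 63.2% of the 26712 nuclear protein-coding genes passed. Levels of different genes are compared on a TPM-like scale, which divides CPM by the merged length of all exons of a gene and gives each library the same total. On that scale the median of the expressed genes was 25.6, and every one of the 8 lay above it. Among these genes, 98.9% had a lower level than TUA4 and 67.6% a lower level than TUBG1, the lowest of the 8.

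TUA2 (AT1G50010, chromosome 1, 18517586 to 18520000, plus strand) had 18353, 21669 and 18675 counts in replicates 1, 2 and 3, which is 631, 749 and 686 CPM, and a TPM-like level of 637 ± 57.0 (SD, n = 3). TUA4 (AT1G04820, chromosome 1, 1356084 to 1358547, minus strand) had 19448, 24698 and 21515 counts, or 669, 854 and 790 CPM. Its TPM-like level was 642 ± 81.4 (SD, n = 3). TUA4 is known as TORTIFOLIA 2, from mutants whose organs twist. TUA6 (AT4G14960, chromosome 4, 8548417 to 8550495, minus strand), in which mutations also twist the plant, had 17303, 22128 and 17397 counts, or 595, 765 and 639 CPM, and a TPM-like level of 581 ± 78.2 (SD, n = 3). The ranges of TUA2, TUA4 and TUA6 over the libraries overlapped, and in each of them replicate 1 was lowest and replicate 2 highest.

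TUA3 and TUA5 lie head to head on chromosome 5, with 2285 bases between their annotated starts and no annotated gene in between. TUA3 (AT5G19770, chromosome 5, 6682420 to 6684744, minus strand) had 7207, 9397 and 7933 counts, or 248, 325 and 291 CPM, and a TPM-like level of 241 ± 33.3 (SD, n = 3). TUA5 (AT5G19780, chromosome 5, 6687030 to 6689171, plus strand) had 10497, 13162 and 11825 counts, or 361, 455 and 434 CPM, and a TPM-like level of 384 ± 47.7 (SD, n = 3). The TPM-like levels of TUA3 and TUA5 did not overlap, and none of them reached the lowest value of TUA2, TUA4 or TUA6.

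TUA1 (AT1G64740, chromosome 1, 24050006 to 24052487, plus strand) had 1215, 1259 and 1398 counts, or 41.8, 43.5 and 51.3 CPM, and a TPM-like level of 45.3 ± 5.42 (SD, n = 3). It was highest in replicate 3, unlike the other 5 alpha-tubulin genes. TUBG1 (AT3G61650, chromosome 3, 22812082 to 22815216, minus strand) had 1517, 1623 and 1453 counts, or 52.2, 56.1 and 53.3 CPM, and a TPM-like level of 41.1 ± 1.67 (SD, n = 3). TUBG2 (AT5G05620, chromosome 5, 1679230 to 1682055, plus strand) had 1390, 1434 and 1268 counts, or 47.8, 49.6 and 46.6 CPM, and a TPM-like level of 42.1 ± 1.24 (SD, n = 3). The 2 gamma-tubulin genes are known to replace each other in the plant, and the reference lists the TUBG2 locus under the symbol GCP2. TUBG1 and TUBG2 overlapped, and the lowest TUA1 level lay within their range.

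**Figure D1:**
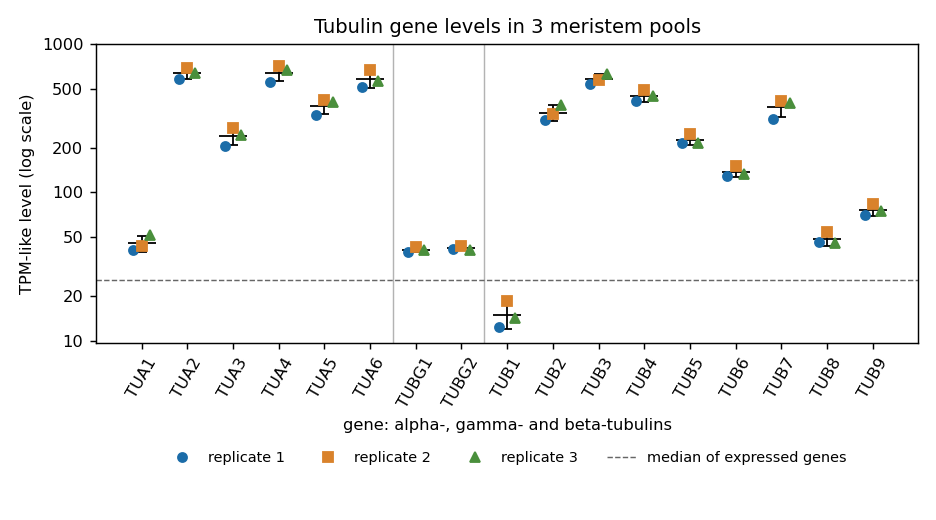
TPM-like level (log scale) of each alpha-, gamma- and beta-tubulin gene in the 3 libraries, with the mean (bar) and SD (whiskers). TUA2, TUA4 and TUA6 stand near 600, TUA1 and both gamma-tubulins near 40 to 50, and all 8 lie above the dashed median of the expressed genes at 25.6.

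As shares of the summed TPM-like level of the alpha-tubulin genes, TUA4 made up 25.4 ± 0.504%, TUA2 25.2 ± 0.721%, TUA6 23.0 ± 0.959%, TUA5 15.2 ± 0.484%, TUA3 9.50 ± 0.227% and TUA1 1.80 ± 0.236% (SD, n = 3 each). Grouped by predicted protein, the protein shared by TUA2 and TUA4 had 50.9%, 50.0% and 50.8% of the alpha-tubulin transcript level in replicates 1, 2 and 3. The protein shared by TUA3 and TUA5 had 24.1%, 24.6% and 25.3%. That of TUA6 had 23.2%, 23.8% and 21.9%, and that of TUA1 1.85%, 1.54% and 2.00%. The order of the 4 proteins by these shares was the same in each library, with those of TUA3 with TUA5 and of TUA6 closest to each other. The shares depend on how shared stretches were counted. With the full count of each gene divided by its number of windows at 1 place instead of its length, TUA3 had 10.4%, TUA5 17.0% and TUA6 21.8%. No reads were limited to those windows. This division would suit only a counting that dropped all reads from shared stretches, and that rule is not known here.

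Ratios between tubulin genes were taken within each library and tested against equal levels with limma over 19 ratios, with Benjamini-Hochberg adjustment. An exact sign-flip test over 3 libraries cannot give a p below 0.25. In all, 17 of the 19 passed at 0.05, and 18 had the same sign in all 3 libraries. The ratios share genes, so the variance that limma pooled over them does not come from independent ratios. The very small p-values below rest on that pooling. Without it 14 of the 19 passed, with an adjusted p of 0.0021 for TUA1 over TUA4 (limma, no moderation). TUA1 was below each other alpha-tubulin gene, from a log2 ratio of -3.82 ± 0.19 against TUA4 (SD, n = 3, limma, adjusted p = 5.6e-12) to -2.41 ± 0.21 against TUA3 (limma, adjusted p = 3.5e-10). TUA3 was below TUA5, its neighbour with the same predicted protein, by a log2 ratio of -0.68 ± 0.05 (SD, n = 3, limma, adjusted p = 5.1e-07). TUA3 and TUA5 together stood at a log2 ratio of -1.58 ± 0.05 to TUA2, TUA4 and TUA6 together (SD, n = 3, limma, adjusted p = 5e-10), and at -0.99 as a mean level per gene. With full counts divided by windows at 1 place, this ratio of sums was -1.38, while that of TUA3 over TUA5 was -0.71. The SD between libraries does not cover this dependence on shared stretches.

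The neighbours at the top and the bottom of the order were close. TUA2 over TUA4 had log2 ratios of 0.07, -0.04 and -0.05 in replicates 1, 2 and 3, which did not pass (limma, adjusted p = 0.89). TUA2 and TUA4 each passed over TUA6, by 0.14 ± 0.07 and 0.14 ± 0.08 log2 units (SD, n = 3, limma, adjusted p = 0.0387 for TUA2 over TUA6 and 0.0353 for TUA4 over TUA6). Both calls ended when replicate 1 was left out (limma, adjusted p = 0.312 for TUA2 over TUA6 and 0.168 for TUA4 over TUA6) and when replicate 3 was left out (0.24 and 0.298). TUBG1 over TUBG2 had log2 ratios of -0.07, -0.02 and -0.003 (mean -0.03 ± 0.04, SD, n = 3, limma, adjusted p = 0.577). Without a length correction the same ratio was 0.17 and passed (limma, adjusted p = 0.0126), since the exons of TUBG1 span 2149 bases and those of TUBG2 1871, so that which gamma-tubulin gene is higher depends on the length used.

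**Figure D2:**
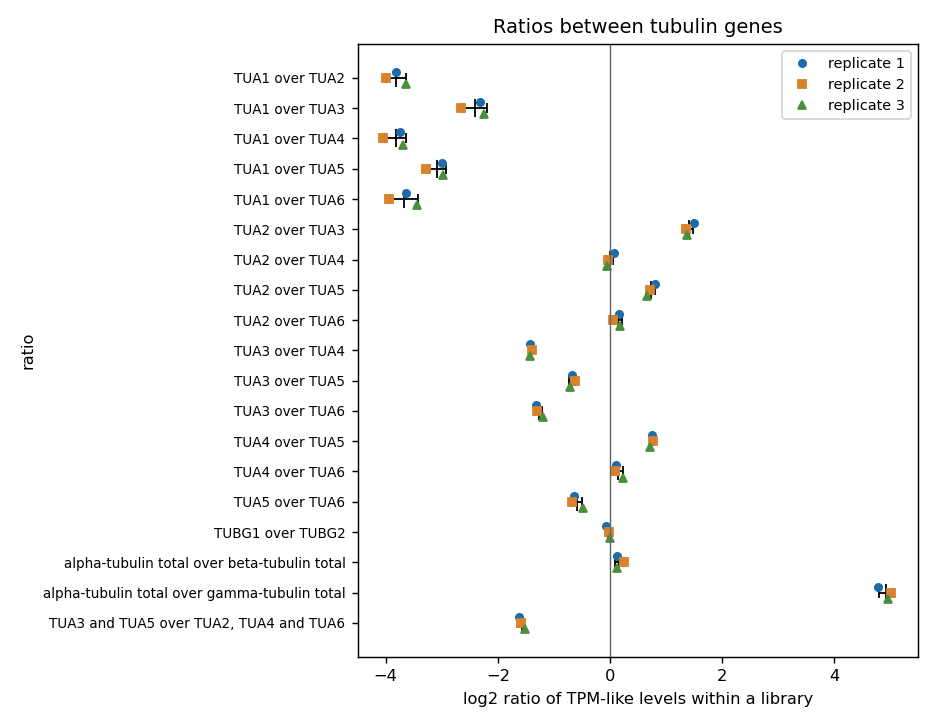
Log2 ratio of TPM-like levels within each library (points), with the mean (bar) and SD (whiskers), for 19 ratios between tubulin genes. The ratios of TUA1 to the other alpha-tubulins lie between -4.04 and -2.25, while those of TUA2 to TUA4 and of TUBG1 to TUBG2 lie close to 0.

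Beta-tubulin is the other subunit of the dimer, and all 9 beta-tubulin genes, TUB1 to TUB9, were expressed. Their mean TPM-like levels (n = 3) ran from 15.0 ± 3.08 for TUB1 to 580 for TUB3, next to 449 for TUB4, 375 for TUB7, 345 for TUB2, 225 for TUB5, 137 for TUB6, 75.9 for TUB9 and 48.7 for TUB8. TUB2 and TUB3 are also near copies, with 88.7% and 88.8% of windows at 1 place. The alpha-tubulin genes summed to 2223, 2806 and 2565 on the TPM-like scale in replicates 1, 2 and 3, against 2041, 2372 and 2343 for the beta-tubulin genes. The alpha-tubulin total was therefore slightly higher in each library, by 0.17 ± 0.07 log2 units (SD, n = 3, limma, adjusted p = 0.0174). This call ended when replicate 1 (log2 ratio 0.19, limma, adjusted p = 0.125) or replicate 3 (0.18, adjusted p = 0.0537) was left out. As a mean level per gene, with 6 alpha- against 9 beta-tubulin genes, the log2 ratio was 0.75.

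The gamma-tubulin genes summed to 81.1, 86.3 and 82.3 on the TPM-like scale. The alpha-tubulin total exceeded theirs by 4.92 ± 0.13 log2 units, or 30.3-fold (SD, n = 3, limma, adjusted p = 4.1e-13), and by 3.34 log2 units as a mean level per gene. Without moderation of the variance the adjusted p for the total was 0.0016 (limma). In raw counts the alpha-tubulin genes took 0.255%, 0.319% and 0.289% of the nuclear counts in replicates 1, 2 and 3, and the gamma-tubulin genes 0.0100%, 0.0106% and 0.00999%.

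The spread between the pools was moderate for alpha-tubulins and small for gamma-tubulins. The highest library exceeded the lowest in CPM by 1.19-fold for TUA2 and by up to 1.31-fold for TUA3, with coefficients of variation from 8.56% for TUA2 to 13.4% for TUA3. For TUBG1 and TUBG2 the coefficients of variation were 3.74% and 3.15%, near the 2.56% and 2.71% that counting alone would give. All 6 alpha-tubulin genes were lowest in replicate 1, 5 of them were highest in replicate 2, and 7 of the 9 beta-tubulin genes were highest in replicate 2 as well. The share of all genes with this order was not counted. A like pattern was not particular to tubulins: 1499 of 13422 other genes lay within 0.1 log2 units of the alpha-tubulin total after centring. The goodness-of-fit test of edgeR asks whether a gene varies more between libraries than genes of its level. It called 0 of the 8, beside 2.52% of 18334 nuclear genes. At so low a share, 0 of 8 is not a result about the tubulins. None of the 8 had an unadjusted p under 0.05, the smallest being 0.364 for TUA1, and DESeq2 called 0 of them as dispersion outliers, against 1.38% of genes. Against Poisson variation alone, which allows for counting error only, the 6 alpha-tubulin genes were called and the gamma-tubulins were not, against 61.0% of all genes.

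**Figure D3:**
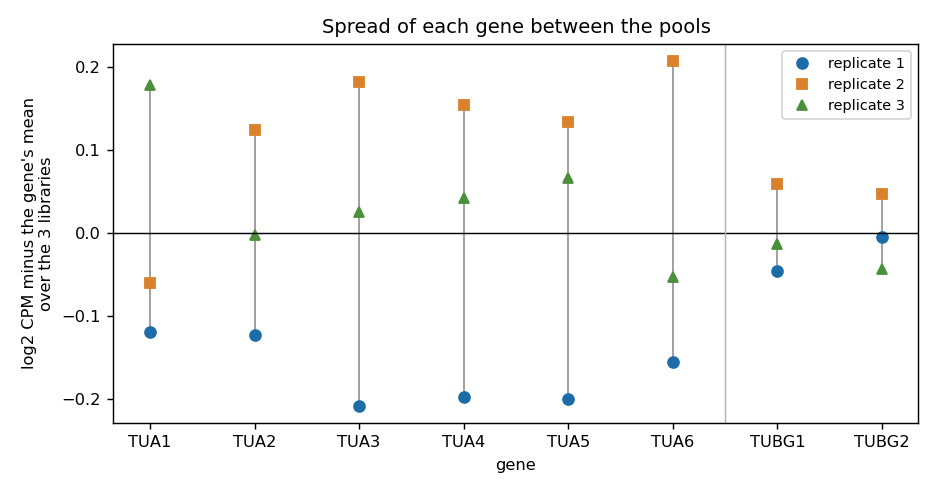
Log2 CPM of each alpha- and gamma-tubulin gene in each library, minus the mean of that gene over the 3 libraries; grey lines join the lowest and the highest library. Replicate 1 is lowest for all 6 alpha-tubulin genes and replicate 2 highest for all of them but TUA1, while both gamma-tubulins stay within 0.06 of their means. The share of all genes with this order was not counted.

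Because TUA1 is annotated in the reference as expressed mainly in stamens and mature pollen, its values were set beside markers of those tissues. The 10 pollen markers summed to 6.43, 25.2 and 2.83 CPM in replicates 1, 2 and 3, where TUA1 alone had 41.8, 43.5 and 51.3 CPM. VGD1, a pectin methylesterase of pollen tubes, was the highest of them by TPM-like level, with 2.58, 12.2 and 0.330 CPM, before AGP11, with 0.585, 2.45 and 0.147 CPM, and AGP6, with 0.653, 2.87 and 0.330 CPM. Of the 10 markers, 1 reached 1 CPM in every library, namely the sperm cell gene HAP2, and the other 9 fell short of it in at least 1 library, namely VGD1, VGDH1, PPME1, GRP14, GRP17, AGP6, AGP11, MGH3 and DUO1. GRP14, with 1, 5 and 8 counts, and GRP17, with 11, 5 and 11 counts, did not follow VGD1. GRP14 was highest in replicate 3, and GRP17 had equal counts in replicates 1 and 3. Counts this low give no firm order of the libraries. DUO1, the regulator of sperm cell identity, was listed at 0 in all 3 libraries, and MGH3, a histone gene of sperm cells, had 0, 2 and 0 counts.

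The 9 tapetum markers summed to 136 CPM in replicate 1 and to 23.3 and 25.4 CPM in replicates 2 and 3. In replicates 2 and 3 nearly all of that sum was LAP6, which was about as high in replicate 1. AMS, a regulator of tapetum development, had 58.3, 0.380 and 0.0367 CPM, and ACOS5, an enzyme of pollen wall synthesis, had 46.2, 0.415 and 0.0734 CPM. LAP6 had 24.3, 22.4 and 25.1 CPM and was the only tapetum marker at 1 CPM or more in every library; MS1 and CYP703A2 were listed at 0 in all, and LAP5, MYB80, DYT1 and MS2 were below 1 CPM in at least 2 libraries. The summed level of the pollen markers was lowest in replicate 3. The spread of TUA1 was 1.23-fold and was not called as varying between the libraries, so the order of its 3 values is not firm. Of the markers, only 1 of the 10 for pollen and 1 of the 9 for tapetum entered that test. The part of stamen cells in the TUA1 level was not tested.

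**Figure D4:**
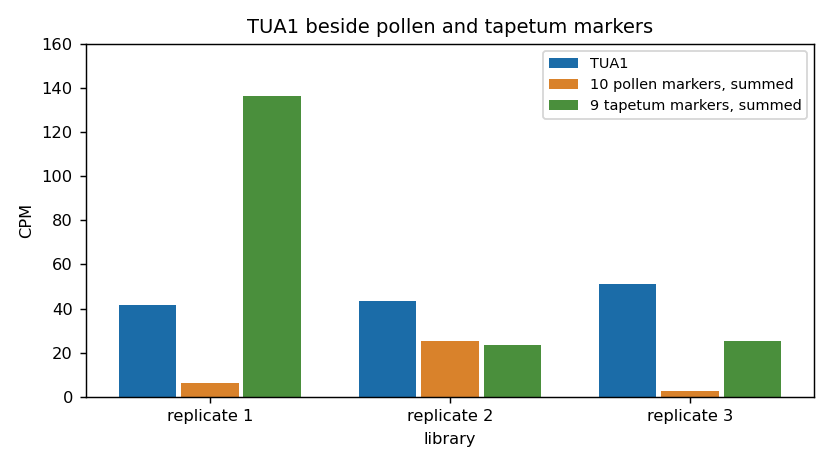
CPM of TUA1 and the summed CPM of 10 pollen and 9 tapetum markers in each library. TUA1 stays between 41.8 and 51.3 CPM, while the pollen sum runs from 2.83 to 25.2 and the tapetum sum from 23.3 to 136. In replicates 2 and 3 the tapetum sum is nearly all LAP6.

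Genes that act with the tubulins were expressed without exception, 36 of 36 in 4 lists, against 63.2% of all nuclear protein-coding genes, with a median TPM-like level of 39.4. Of the gamma-tubulin complex, which holds gamma-tubulin at the sites where microtubules start, all 9 genes were expressed. Their mean levels ran from 3.27 to 40.2, with a median of 32.8, and all lay below the means of TUBG1 and TUBG2. The highest were AT1G80260, described in the reference as a Spc97/Spc98 family component, at 40.2, the small subunit gene GIP1 at 38.6, and GCP4 at 33.6. In replicate 1, however, GIP1 at 42.9 stood above TUBG1 at 39.5 and TUBG2 at 41.6, and AT1G80260 at 39.7 above TUBG1. These differences were not tested. The 8 genes of augmin, which brings gamma-tubulin complexes to existing microtubules, ran from 9.77 to 51.4, led by AUG4, AUG6 at 45.2 and AUG7 at 43.0. All 5 folding cofactor genes, whose products assemble the alpha-beta dimer, were expressed. They were led by TFCA, which binds beta-tubulin, at 93.2, AT3G10220, described as cofactor B, which binds alpha-tubulin, at 84.9, and TFCE at 35.9.

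Among 14 genes of microtubule-associated proteins, the levels per length were highest for SPR1 at 224, a plus-end protein whose loss twists organs, TON2 at 117, a phosphatase subunit needed for the preprophase band, and MAP65-1 at 112, which bundles microtubules. All 14 were expressed. PHS1, a phosphatase with a kinase domain that phosphorylates alpha-tubulin, had the lowest level of the 14 at 17.3. Of the 36 partner genes, 0 were called as varying by edgeR's goodness-of-fit test, and none had an unadjusted p under 0.05. Of all genes tested 2.52% were called, a share too low for 0 of 36 to set the partner genes apart. The mean TPM-like level of each of the 36 lay below that of TUA3, although SPR1 stood at 214 and TUA3 at 205 in replicate 1.

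Reads from overlapping genes could reach some of these counts if the counting ignored strand, which the sources used here do not state, although the libraries were strand-specific. TUA1 overlaps AT1G64750 on the opposite strand over 126 bases, TUA2 overlaps AT1G50020 over 55 bases and TUA5 overlaps AT5G19790 over 64 bases. Over its whole length AT1G64750 had 3311, 2769 and 2667 counts, more than TUA1. How many of these came from the 126 shared bases, and whether any entered the TUA1 count, was not tested. AT5G19790 was listed at 0 in all libraries. Antisense transcripts annotated across TUA1, TUA2 and TUBG1 were not analysed here. TUA3, TUA4, TUA6 and TUBG2 overlap no annotated gene.

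Of 13422 nuclear protein-coding genes other than tubulins with a mean of at least 10 CPM, 767 lay within 0.1 log2 units of TUA1 in every library after centring, and 1499 within 0.1 of the alpha-tubulin total. The nearest to TUA1 were AT1G71695, of the peroxidase superfamily, MBD11, a methyl-CpG-binding domain gene, and AT3G58770, with largest differences of 0.005, 0.006 and 0.008. The nearest to the alpha-tubulin total were OMR1, mMDH1, described as a malate dehydrogenase, and AT1G74800, of the galactosyltransferase family, with 0.005, 0.006 and 0.007.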

How the data were processed

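The authors deposited a table of raw, unnormalised counts for each library, with 1 whole number per locus. Per the submitters' processing notes, the genome build was TAIR10, and the tools were HTSeq 0.6.1, TopHat2 2.1.0, Bowtie2 2.2.5 and FastQC. For their settings, the strand option and the handling of multiply matching reads, nothing is given in the sources used here. Libraries were strand-specific, with paired reads of 100 bases, per the labels' protocols. No line lacked a gene name (0 in each library).

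Loci were matched to RefSeq TAIR10.1 (31912 of 32678), and 279 organelle loci were left out. A count of 0 allows up to 0.110 CPM (3 counts), for counting error only. Ratios were tested with limma 3.58.1 (two-sided, intercept only, no pseudocount), and variation between libraries with edgeR 4.0.16 (TMM, filterByExpr, dispersion trend, Benjamini-Hochberg over all genes tested). DESeq2 1.42.0 was an alternative. Coding sequences were read, translated and compared with Biopython 1.88. Both tests were also run on simulated data. For the variation test these held less variation than the median dispersion trend here, so they do not show how well it works on these libraries. With 1 group, no comparison of conditions was possible.

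The 8 genes, the gene lists, the ratios and the tests were chosen with earlier results of these data known. Of 84 listed genes, 79 were matched by symbol or synonym and 5 by description, which are named by locus unless a symbol was matched. Genes are named by a rule: all tubulins, the 3 highest of each other list by TPM-like level and those below 1 CPM in any library, and the 3 nearest in pattern to TUA1 and to the alpha-tubulin total. PHS1, HAP2, overlapping genes and some values of lower-ranking list members were chosen after their values were seen.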

Additional observations from a re-analysis of the deposited data

How the results depend on the processing

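The 8 genes passed as expressed at 0.5 and 5 CPM, at 10 counts, at 1 TPM-like and without each replicate. The count of genes called as varying was 0 under every alternative except Poisson variation alone, where it was 6. The count of ratios past the threshold, 17, was between 14 and 18 under all alternatives, with 14 to 17 when 1 replicate was left out. Of the single-gene ratios, TUBG1 over TUBG2 turned to 0.17 with no length correction and with coding length. The alpha-tubulin total over the beta-tubulin total kept its direction, between 0.13 and 0.19 when 1 replicate was left out, but lost its call without moderation of the variance (0.17, limma, adjusted p = 0.0641). TUA2 over TUA6 and TUA4 over TUA6 lost their calls in 8 settings in all, and TUA2 over TUA4 gained one at -0.16 with no length correction and with coding length. With no length correction, the shares of the alpha-tubulin level were 24.0% for TUA2, 10.0% for TUA3, 26.8% for TUA4 and 14.5% for TUA5. With full counts divided by windows at 1 place they were 24.3% for TUA2, 10.4% for TUA3, 24.8% for TUA4, 17.0% for TUA5 and 21.8% for TUA6. Apart from the effect of the lengths themselves and of fewer libraries, the cause was not tested. No paired analysis was possible because the series has 1 group. The dispersion trend at the levels of the 8 genes was 12.2% to 15.2% as a coefficient of variation, which limits the variation that 3 libraries can show.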
